A study of Homo sapiens with 4 samples.

Results

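The genes of cholesterol and fatty acid synthesis were followed in human fibroblasts in which an enhancer of FOXF1 or FOXF1 itself had been targeted. The set is a list of 31 genes for the enzymes of both pathways and their SREBP control, taken by gene symbol from a table of 12033 genes. Of these, 30 were read from the table, and ACACA, the acetyl-CoA carboxylase, was not analysed here. The 27 members with a mean of at least 2 RPKM (reads scaled to transcript length and library size) over the libraries were compared, beside 7596 genes in all that met the same minimum.

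RNA was sequenced from BJ-indRAS G12V cells, which are hTERT-immortalized human BJ fibroblasts carrying a RAS G12V gene switched on by 4-hydroxytamoxifen (4-OHT). All 4 populations received 4-OHT for 14 days, so that oncogenic RAS was on in each of them, and all carried CRISPR-Cas9 with a single guide RNA. In the first and second populations sgRNA-AP1-69 or sgRNA-AP1-71 cut the enhancer Enh AP1-OIS1, in the third sgRNA-FOXF1 cut the FOXF1 gene, and in the control sgRNA-NT had no target in the genome. The cells were transduced populations with mixed alleles and not clones, and 1 library was made for each condition. The libraries are called guide 69, guide 71, the FOXF1 guide and sgRNA-NT below. All ratios to sgRNA-NT therefore share a single control library. Guides 69 and 71 give the only measure of spread, and nothing in the labels says that the libraries came from separate cultures beyond their guides.

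Cholesterol is built from acetyl-CoA through mevalonate and isoprenoid diphosphates to squalene, which is closed to lanosterol and trimmed to cholesterol. Fatty acids are built from the same acetyl-CoA, which ATP citrate lyase makes from citrate, and are then lengthened and desaturated. Both pathways are switched on by SREBP transcription factors, which SCAP escorts to the Golgi for cleavage when sterols are low and INSIG proteins hold back in the endoplasmic reticulum when sterols are plentiful.

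Promoters from RefSeq, spanning 250 bases before to 50 bases after a start site, were analysed for 27 of the 31 listed genes, with 36 entries. Promoters of ACAT2, FASN, FDFT1 and SQLE were not analysed here, so that the shares of the 36 promoters leave these genes out. Motifs were searched on both strands. The CCAAT box (CCAAT), which NF-Y binds, stood in 25 of the 36 promoters (69.4%), against 34.6% of 35116 promoters of all genes. The Sp1 box (GGGCGG) stood in 31 of the 36 (86.1%), against 45.0% of all promoters. The core of the sterol regulatory element, searched as TCACNCCAC, stood in 1 of the 36 (2.78%), against 1.13% of all promoters, and that entry was SREBF2. A match describes letters and not a bound site. Shown here are FDPS, a mevalonate enzyme, EBP, a sterol enzyme, and both SREBP genes, which differed from each other in the data. FDPS and EBP held 3 CCAAT boxes each. EBP was at least 1.5-fold higher than sgRNA-NT in each targeted library, and FDPS under guide 71 alone. The MVD entry and an entry of IDI1 also held 3 CCAAT boxes, and these genes stayed within 1.5-fold of sgRNA-NT. Capitals mark CCAAT boxes on either strand and, in SREBF2, also the sterol element core. Coordinates are GRCh38.p14, on the plus strand for FDPS (chr1:155308616-155308915), EBP (chrX:48521558-48521857) and SREBF2 (chr22:41832855-41833154) and on the minus strand for SREBF1 (chr17:17836937-17837236).
FDPS: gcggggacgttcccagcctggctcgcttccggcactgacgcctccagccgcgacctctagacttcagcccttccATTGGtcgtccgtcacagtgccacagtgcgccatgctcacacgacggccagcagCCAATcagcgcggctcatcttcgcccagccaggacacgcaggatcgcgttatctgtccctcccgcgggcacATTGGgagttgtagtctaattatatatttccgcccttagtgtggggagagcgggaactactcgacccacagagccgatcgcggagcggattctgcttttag
EBP: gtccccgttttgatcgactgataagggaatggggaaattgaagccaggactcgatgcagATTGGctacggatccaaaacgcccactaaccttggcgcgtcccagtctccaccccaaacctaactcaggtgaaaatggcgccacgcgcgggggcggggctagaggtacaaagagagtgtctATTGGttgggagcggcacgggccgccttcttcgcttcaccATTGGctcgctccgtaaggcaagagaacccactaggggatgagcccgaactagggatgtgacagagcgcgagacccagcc
SREBF1: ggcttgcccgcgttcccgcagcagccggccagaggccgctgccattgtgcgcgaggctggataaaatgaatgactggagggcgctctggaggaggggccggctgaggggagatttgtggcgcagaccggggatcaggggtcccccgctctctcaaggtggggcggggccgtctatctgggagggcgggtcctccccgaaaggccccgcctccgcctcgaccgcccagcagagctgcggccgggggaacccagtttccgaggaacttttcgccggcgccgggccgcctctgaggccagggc
SREBF2: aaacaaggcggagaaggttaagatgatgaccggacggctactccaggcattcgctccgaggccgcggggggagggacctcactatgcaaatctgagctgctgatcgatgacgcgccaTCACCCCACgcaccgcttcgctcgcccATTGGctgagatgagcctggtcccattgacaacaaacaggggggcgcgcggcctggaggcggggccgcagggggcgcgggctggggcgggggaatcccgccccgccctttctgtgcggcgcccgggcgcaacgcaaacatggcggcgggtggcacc
The SREBF1 entry held 0 CCAAT boxes and 3 Sp1 boxes. The SREBF2 entry held 1 CCAAT box and 3 Sp1 boxes, with the sterol element core starting at position -133 from the start site.

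Several features of the libraries moved with the groups compared below, and their part in the results was not tested. FOXF1 measured 11.1 RPKM under guide 69, 7.8 under guide 71 and 25 under the FOXF1 guide, against 29.6 under sgRNA-NT, and a guide to a coding gene can act on the protein without lowering the RNA. HRAS is the RAS gene whose induced form the paper blotted as ER-HRas. It measured 446.4 RPKM under guide 69, 427.4 under guide 71 and 707.6 under the FOXF1 guide, against 829.4 under sgRNA-NT. Whether its reads came from the induced or the native gene was not tested. The 13 mitochondrially encoded transcripts had medians of -1.02 under guide 69, -1.54 under guide 71 and -0.77 under the FOXF1 guide relative to sgRNA-NT. All 10 fibroblast markers were above the floor, summing to 5180 RPKM under guide 69, 5373 under guide 71 and 5103 under the FOXF1 guide, against 3562 RPKM under sgRNA-NT. VIM and S100A4 made up most of these sums, and the markers did not move as a set. COL1A1 measured 53.7 RPKM under guide 69, 42.5 under guide 71 and 115.6 under the FOXF1 guide, against 120.6 under sgRNA-NT, whereas LUM measured 8.3 under guide 69, 7.9 under guide 71 and 13.1 under the FOXF1 guide, against 2.3 under sgRNA-NT. Of the markers of other cells, 0 of 6 for adipocytes and 0 of 4 for hepatocytes were among the genes analysed here, 2 of 5 epithelial markers (KRT8, KRT18) summed to 144.1 RPKM under guide 69, 83.6 under guide 71 and 137.7 under the FOXF1 guide, against 80.5 under sgRNA-NT, and 1 of 3 leukocyte markers (CD14) had 7.9 RPKM under guide 69, 8.5 under guide 71 and 6.0 under the FOXF1 guide, against 9.8 under sgRNA-NT. In bulk RNA, fewer cells of a type and less RNA per cell cannot be told apart. The depth of the libraries is unknown, since the values hold no counts.

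In the targeted populations most cholesterol enzymes were somewhat higher than in sgRNA-NT, whereas FASN, the fatty acid synthase, was lower in all 3 and SREBF1, which encodes SREBP-1, was lower under both enhancer guides. The median log2 ratio of the 27 members to sgRNA-NT was 0.22 under guide 69, 0.36 under guide 71 and 0.21 under the FOXF1 guide. Over all 7596 genes the medians were 0.07 under guide 69, 0.08 under guide 71 and 0.05 under the FOXF1 guide. The members' medians differed between the enhancer guides by an SD of 0.10.

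Few members passed a difference of 1.5-fold. Under guide 69, 3 members were higher (11.1%), against 8.18% of all genes, and 2 were lower (7.41%), against 9.93%. Under guide 71, 6 were higher (22.2%), against 14.0% of all genes, and 2 were lower (7.41%), against 14.7%. Under the FOXF1 guide, 3 were higher (11.1%), against 11.6%, and 2 were lower (7.41%), against 13.2%. A single gene makes 3.7% of 27 members, so that these shares rest on few genes. Over all 30 members read from the table, 3 were higher and 2 lower under guide 69, 7 higher and 2 lower under guide 71, and 3 higher and 3 lower under the FOXF1 guide. Over all 12033 genes, 6.12% were higher and 8.39% lower under guide 69, 10.8% and 12.0% under guide 71, and 9.39% and 11.3% under the FOXF1 guide.

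limma, fitted to all genes with both enhancer guides as 1 group, called 0 of 7596 genes (0.0%) at an adjusted p of 0.05 for the enhancer guides against sgRNA-NT, and likewise 0 (0.0%) for the FOXF1 guide against sgRNA-NT and 0 (0.0%) for the FOXF1 guide against the enhancer guides. The fit had 1 residual degree of freedom a gene. At an unadjusted p under 0.05 it held 1840, 1623 and 732 genes in these comparisons, among them 10, 5 and 2 members. Refitted without the 251 genes whose values were equal in both guides, it called 1423, 1050 and 340 of 7345 genes and 6, 3 and 1 of 26 members. The values below are therefore differences between single libraries, described with the distance between the enhancer guides.

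**Figure D1:**
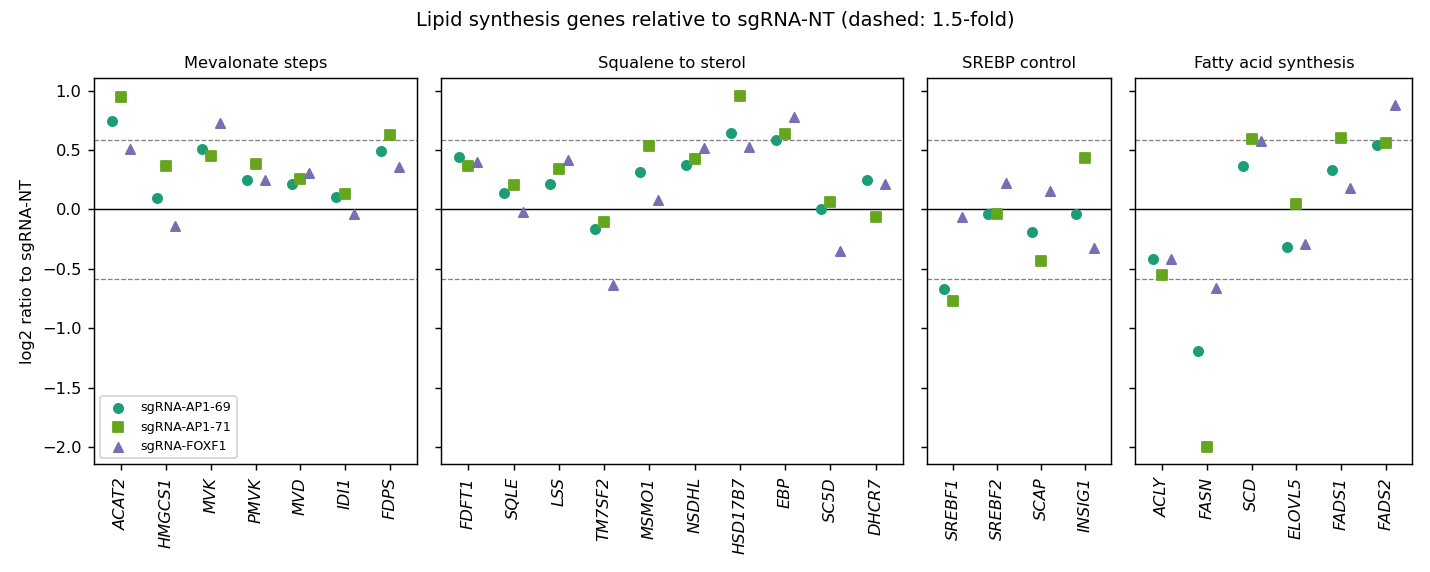
Log2 ratio to sgRNA-NT (y axis) of the 27 compared members (x axis, grouped by role), with a point for each targeted library and dashed lines at 1.5-fold. All 7 mevalonate genes lie above 0 under both enhancer guides, as do 4179 of all 7596 genes under guide 69 and 4189 under guide 71. FASN lies at -1.19 under guide 69, -2.00 under guide 71 and -0.66 under the FOXF1 guide.

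The mevalonate steps, from acetyl-CoA to farnesyl diphosphate, had medians of 0.25 under guide 69, 0.39 under guide 71 and 0.31 under the FOXF1 guide. All 7 genes were above sgRNA-NT under each enhancer guide, and 5 of 7 under the FOXF1 guide. Of all 7596 genes, 4179 were above sgRNA-NT under guide 69, 4189 under guide 71 and 4098 under the FOXF1 guide. PMVK turned to -0.10 under guide 69 and -0.02 under guide 71 once the log2 ratios were corrected for transcript length, which is described further on. ACAT2, the cytosolic thiolase that joins acetyl-CoA units at the start of the pathway, measured 16.9 RPKM under guide 69, 19.5 under guide 71 and 14.4 under the FOXF1 guide, against 10.1 under sgRNA-NT. It was 1.67-fold and 1.93-fold higher under the enhancer guides, a mean log2 ratio of 0.85 (limma SE 0.15, adjusted p = 0.205), and 1.43-fold higher under the FOXF1 guide. Its transcript (chr6:160183077-160200144, plus strand, GRCh37) overlaps 454 bases of exons of TCP1 on the opposite strand, so that reads counted without strand could come from either gene.

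FDPS, which makes farnesyl diphosphate (chr1:155278539-155290457, plus strand, GRCh37), was the most abundant of these genes at 64.5 RPKM under guide 69, 71 under guide 71 and 58.9 under the FOXF1 guide, against 45.9 under sgRNA-NT. It passed 1.5-fold under guide 71 (1.55-fold) and not under guide 69 (1.41-fold) or the FOXF1 guide (1.28-fold). Of its name the annotation holds 8 pseudogenes that could take or lend reads. MVK, the mevalonate kinase, stood at 5.4 RPKM under guide 69, 5.2 under guide 71 and 6.3 under the FOXF1 guide, against 3.8 under sgRNA-NT. It was highest under the FOXF1 guide (1.66-fold), and short of 1.5-fold under guide 69 (1.42-fold) and guide 71 (1.37-fold).

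The other 4 mevalonate genes stayed within 1.5-fold. PMVK, the phosphomevalonate kinase, had log2 ratios of 0.25 under guide 69, 0.39 under guide 71 and 0.25 under the FOXF1 guide. MVD, the diphosphomevalonate decarboxylase, had similar ratios of 0.22 under guide 69, 0.26 under guide 71 and 0.31 under the FOXF1 guide. HMGCS1, the cytosolic HMG-CoA synthase, measured 4.5 RPKM under guide 69, 5.4 under guide 71 and 3.8 under the FOXF1 guide, against 4.2 under sgRNA-NT. IDI1, the isopentenyl diphosphate isomerase, measured 11.8 RPKM under guide 69, 12.0 under guide 71 and 10.7 under the FOXF1 guide, against 11 under sgRNA-NT. Both of these enzymes, which sterols are known to regulate through SREBP-2, were thus within 1.3-fold of the control in every library.

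The enzymes from squalene to cholesterol had medians of 0.28 under guide 69, 0.35 under guide 71 and 0.31 under the FOXF1 guide over 10 compared genes. HSD17B7, a ketoreductase of the demethylation of sterols at carbon C-4, measured 2.5 RPKM under guide 69, 3.1 under guide 71 and 2.3 under the FOXF1 guide, against 1.6 under sgRNA-NT. Its ratios of 1.56 under guide 69, 1.94 under guide 71 and 1.44 under the FOXF1 guide rest on values close to the floor of 1 RPKM, and it has pseudogenes. EBP, the sterol isomerase that shifts the ring double bond (chrX:48380187-48387104, plus strand, GRCh37), measured 11.4 RPKM under guide 69, 11.8 under guide 71 and 13.0 under the FOXF1 guide, against 7.6 under sgRNA-NT. EBP was 1.5-fold higher under guide 69, 1.55-fold under guide 71 and 1.71-fold under the FOXF1 guide. Its mean log2 ratio for the enhancer guides was 0.61 (limma SE 0.10, adjusted p = 0.205), and that for the FOXF1 guide was 0.77 (SE 0.12, adjusted p = 0.225). A newer gene model on the same strand shares 642 of the 1125 bases of its transcript.

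TM7SF2, a sterol reductase, measured 2.5 RPKM under guide 69, 2.6 under guide 71 and 1.8 under the FOXF1 guide, against 2.8 under sgRNA-NT. The control was the highest library, and the gene was 1.56-fold lower under the FOXF1 guide, at a level near the floor. FDFT1, the squalene synthase and the most abundant sterol enzyme of the list, measured 85.6 RPKM under guide 69, 80.9 under guide 71 and 83.1 under the FOXF1 guide, against 62.9 under sgRNA-NT. The targeted libraries lay close together above the control, at 1.36-fold under guide 69, 1.29-fold under guide 71 and 1.32-fold under the FOXF1 guide.

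The remaining sterol enzymes were within 1.5-fold. NSDHL, another enzyme of C-4 demethylation, had log2 ratios of 0.37 under guide 69, 0.43 under guide 71 and 0.52 under the FOXF1 guide. LSS, which closes the rings of lanosterol, had 0.21 under guide 69, 0.34 under guide 71 and 0.41 under the FOXF1 guide. MSMO1, the C-4 methyl sterol oxidase, had 0.31 under guide 69, 0.53 under guide 71 and 0.08 under the FOXF1 guide. SQLE, the squalene epoxidase, measured 15.2 RPKM under guide 69, 15.9 under guide 71 and 13.6 under the FOXF1 guide, against 13.8 under sgRNA-NT. DHCR7, which makes cholesterol from its last precursor, measured 26.1 RPKM under guide 69, 21.0 under guide 71 and 25.5 under the FOXF1 guide, against 22.0 under sgRNA-NT. SC5D, a sterol desaturase, measured 2.3 RPKM under guide 69, 2.4 under guide 71 and 1.8 under the FOXF1 guide, against 2.3 under sgRNA-NT. SQLE, DHCR7 and SC5D thus stayed close to the control. CYP51A1, the lanosterol demethylase, is listed at the floor of 1.0 RPKM in all 4 libraries. It shares 2827 of its 3155 transcript bases with a newer gene model on the same strand.

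**Figure D2:**
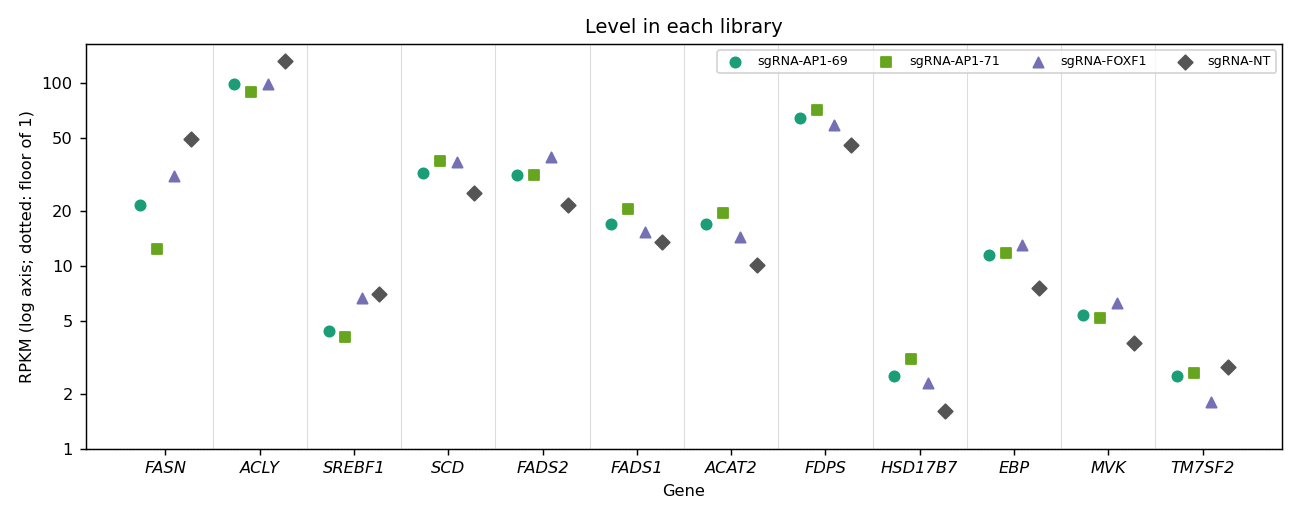
RPKM (y axis, log axis, floor of 1) of 12 members (x axis) in each library, 1 point a library. FASN and ACLY are lower in the 3 targeted libraries than in sgRNA-NT, SREBF1 is lower under the enhancer guides at 4.4 and 4.1 RPKM, against 7.0 under sgRNA-NT, and ACAT2, FDPS, HSD17B7, EBP, MVK, SCD, FADS1 and FADS2 are higher in the targeted libraries.

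Among the control genes, SREBF1 set the enhancer guides apart from the other libraries. SREBF1 (chr17:17713713-17740316, minus strand, GRCh37) measured 4.4 RPKM under guide 69, 4.1 under guide 71 and 6.7 under the FOXF1 guide, against 7.0 under sgRNA-NT. Both enhancer guides were lower, by 1.59-fold and 1.71-fold, a mean log2 ratio of -0.72 (limma SE 0.12, adjusted p = 0.205), and the FOXF1 guide library stood 1.58-fold above the enhancer guides (log2 0.66, SE 0.12, adjusted p = 0.45). SREBF2, which encodes SREBP-2, the main activator of the cholesterol genes, measured 24.3 RPKM under each enhancer guide and 29.2 under the FOXF1 guide, against 25 under sgRNA-NT. SREBF2 thus lay close to the control under the enhancer guides, where SREBF1 was lower.

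SCAP, the escort of both SREBPs, measured 16.0 RPKM under guide 69, 13.5 under guide 71 and 20.4 under the FOXF1 guide, against 18.3 under sgRNA-NT. INSIG1, the retention factor and itself an SREBP target, measured 11.1 RPKM under guide 69, 15.4 under guide 71 and 9.1 under the FOXF1 guide, against 11.4 under sgRNA-NT. The enhancer guides disagreed for INSIG1, with log2 ratios of -0.04 and 0.43, so that its difference from the FOXF1 guide (log2 -0.52, SE 0.28) was of the size of their spread. STARD4, a cytosolic sterol carrier, stayed at 1.6 RPKM under guide 69, 1.8 under guide 71 and 1.3 under the FOXF1 guide, against 1.2 under sgRNA-NT, below the level at which genes were compared.

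Fatty acid synthesis held the most divergent members. FASN, which builds palmitate from malonyl-CoA, measured 21.5 RPKM under guide 69, 12.3 under guide 71 and 31.1 under the FOXF1 guide, against 49.2 under sgRNA-NT. The control was the highest of the 4 libraries, and the targeted libraries did not reach it. FASN was 2.29-fold and 4-fold lower under the enhancer guides and 1.58-fold lower under the FOXF1 guide. The enhancer guides themselves lay 0.81 apart on the log2 scale, and their mean log2 ratio of -1.60 (limma SE 0.46) had an adjusted p of 0.21. Under the FOXF1 guide the log2 ratio was -0.66 (SE 0.53, adjusted p = 0.49). Between the enhancer guides, FASN was the only one of 27 members at 1.5-fold or more in guide 71 against guide 69, with 1 member lower, against 2.84% of all genes, and 0 higher, against 2.41%.

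ACLY, the ATP citrate lyase that supplies cytosolic acetyl-CoA, was the most abundant member at 98.0 RPKM under guide 69, 89.4 under guide 71 and 98.0 under the FOXF1 guide, against 130.8 under sgRNA-NT. It was lower in each targeted library by less than 1.5-fold, with log2 ratios of -0.42 under guide 69, -0.55 under guide 71 and -0.42 under the FOXF1 guide. The fatty acid desaturases of the list, SCD, FADS1 and FADS2, lay on the other side of the control. Outside the list, the desaturase SCD5 had log2 ratios of -0.15 under guide 69, -0.41 under guide 71 and -0.53 under the FOXF1 guide. FADS3 had -0.02 under guide 69, -0.17 under guide 71 and 0.09 under the FOXF1 guide. SCD, which makes monounsaturated fatty acids, measured 32 RPKM under guide 69, 37.6 under guide 71 and 37.1 under the FOXF1 guide, against 24.9 under sgRNA-NT, and passed 1.5-fold under guide 71 (1.51-fold).

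FADS1 and FADS2, neighbouring genes for the desaturases of polyunsaturated fatty acids, were also higher. FADS2 (chr11:61560452-61634826, plus strand, GRCh37) measured 31.2 and 31.5 RPKM under guides 69 and 71 and 39.3 under the FOXF1 guide, against 21.4 under sgRNA-NT. The enhancer guides agreed closely at 1.46-fold and 1.47-fold (mean log2 0.55, limma SE 0.09, adjusted p = 0.205), and the FOXF1 guide was 1.84-fold higher (log2 0.88, SE 0.11, adjusted p = 0.225). FADS1 measured 17.0 RPKM under guide 69, 20.5 under guide 71 and 15.3 under the FOXF1 guide, against 13.5 under sgRNA-NT, and passed 1.5-fold under guide 71 (1.52-fold). ELOVL5, an elongase of polyunsaturated fatty acids, measured 14.4 RPKM under guide 69, 18.5 under guide 71 and 14.6 under the FOXF1 guide, against 17.9 under sgRNA-NT, with no common direction. ELOVL6, the elongase of palmitate, stayed low at 1.7 RPKM under guide 69, 1.5 under guide 71 and 1.3 under the FOXF1 guide, against 2.1 under sgRNA-NT. ACLY and FASN, which lead to the saturated chain, thus lay below sgRNA-NT in the targeted libraries. The listed desaturases SCD, FADS1 and FADS2 lay above it, and SCD5, outside the list, below it. All these ratios share the same control library.

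Transcript length moved with these ratios. Over 7566 genes with a length, Spearman's rho across genes between transcript length and log2 ratio was -0.50 under guide 69, -0.44 under guide 71 and -0.45 under the FOXF1 guide, and over the 27 members the rho was -0.57 under guide 69, -0.47 under guide 71 and -0.39 under the FOXF1 guide. Genes of one library share their depth and processing and are not independent replicates. All genes were split by length into 5 groups. The shortest group of 1515 genes, up to 1598 bases, had medians of 0.33 under guide 69, 0.39 under guide 71 and 0.31 under the FOXF1 guide. The longest group of 1513 genes, from 5032 bases, had -0.29 under guide 69, -0.31 under guide 71 and -0.35 under the FOXF1 guide. Of the cholesterol enzymes, ACAT2, PMVK, FDPS, TM7SF2, HSD17B7 and EBP fall in the shortest group, with member medians of 0.54 under guide 69, 0.63 under guide 71 and 0.44 under the FOXF1 guide. FASN, of 8464 bases and 65.3% GC, falls in the longest, where 83 genes under guide 69, 36 under guide 71 and 452 under the FOXF1 guide were as low or lower.

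After correction of the ratios for length, FASN stood at -0.77 under guide 69, -1.49 under guide 71 and -0.18 under the FOXF1 guide. SREBF1 stood at -0.50 under guide 69, -0.57 under guide 71 and 0.15 under the FOXF1 guide, and EBP at 0.26, 0.25 and 0.44 under these guides, so that neither passed 1.5-fold in any library. ACAT2 passed it under guide 71 alone, at 0.66, with 0.50 under guide 69 and 0.25 under the FOXF1 guide. FADS2 moved little, at 0.53 under guide 69, 0.55 under guide 71 and 0.85 under the FOXF1 guide. SCD, with a transcript of 5245 bases, moved up to 0.56 under guide 69, 0.82 under guide 71 and 0.82 under the FOXF1 guide. HMGCS1 under guide 71, at 0.60, and LSS under the FOXF1 guide, at 0.62, passed 1.5-fold only after this correction.

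After correction for length and GC content together, FASN stood at -0.55 under guide 69, -1.06 under guide 71 and -0.31 under the FOXF1 guide, and passed 1.5-fold under guide 71 alone. SREBF1 had -0.36 under guide 69, -0.28 under guide 71 and 0.00 under the FOXF1 guide. SCD at 0.73 and FADS1 at 0.68 under guide 71, and FADS2 at 0.69 and TM7SF2 at -0.99 under the FOXF1 guide, still passed 1.5-fold. FADS2 at 0.64 and LSS at 0.64 under guide 71, and SCD at 0.88 under the FOXF1 guide, passed it only with a correction.

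**Figure D3:**
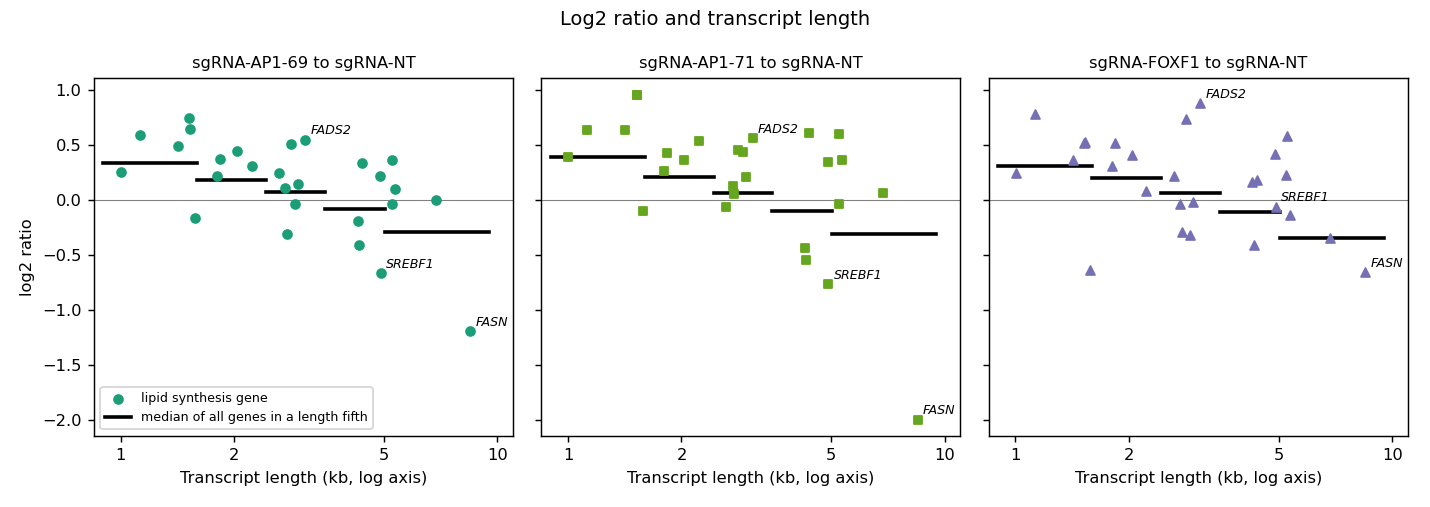
Log2 ratio to sgRNA-NT (y axis) against transcript length in kb (x axis, log axis) for the 27 members, a panel for each targeted library. Black bars are medians of all genes in each of 5 length groups, between 0.33 and -0.29 under guide 69, and FASN lies below its bar in each panel.

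The FOXF1 guide library was also set against the enhancer guides, a comparison that does not use the sgRNA-NT library. The members' median log2 ratio was -0.002, against -0.03 over all genes. Higher at 1.5-fold were 2 members, FASN and SREBF1 (7.41%), against 5.86% of all genes, and 0 members were lower, against 3.54%. FASN was 1.91-fold higher than the mean of the enhancer guides (log2 0.94, SE 0.46, adjusted p = 0.459). At the low end, INSIG1 and TM7SF2 had -0.52 and -0.50, short of 1.5-fold.

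In this comparison GC content moved with the ratios, with a Spearman's rho across genes of 0.60 over all genes and 0.66 over the 27 members. SREBF1 has 63.2% GC and SCAP 61.7%, whereas SC5D has 36.9%, MSMO1 37.4% and IDI1 37.9%. Other members lay off this trend, with TM7SF2 at a log2 ratio of -0.50 and 62.4% GC and MVD at 0.07 and 65.5% GC. Corrected for length and GC content, FASN stood at 0.49 and SREBF1 at 0.32. GC content also moved with the ratio of guide 71 to guide 69, with a rho of -0.28 over all genes and -0.58 over the members. Against sgRNA-NT, the rho over all genes was 0.04 under guide 69, -0.10 under guide 71 and 0.33 under the FOXF1 guide. Over the members it was -0.16 under guide 69, -0.33 under guide 71 and 0.12 under the FOXF1 guide.

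**Figure D4:**
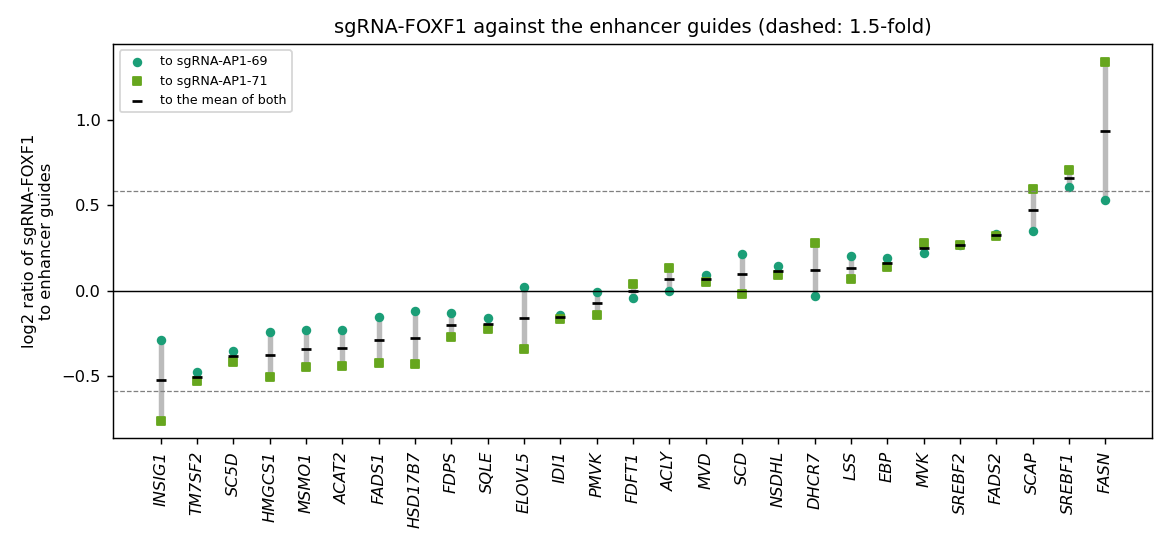
Log2 ratio of the FOXF1 guide to each enhancer guide (points, joined by grey bars) and to their mean (black dashes) for the 27 members (x axis, in order of the mean), with dashed lines at 1.5-fold. FASN at 0.94 and SREBF1 at 0.66 pass the upper line, and the grey bar of FASN is the longest.

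Genes around the pathways were counted at 1.5-fold in 7 lists written for this purpose, to be read against the shares of all genes given above (8.18% higher and 9.93% lower under guide 69, 14.0% and 14.7% under guide 71, 11.6% and 13.2% under the FOXF1 guide). Of the lists with more than 10 compared genes, the shares farthest above these were sterol uptake and efflux among the lower genes under guide 71 (27.3%), fatty acid supply and elongation among the lower genes under the FOXF1 guide (23.5%) and fatty acid oxidation among the higher genes under guide 71 (26.7%), which are 3, 4 and 4 genes. Of 8 compared genes of SREBP processing and sterol sensing, 2 under guide 69, 1 under guide 71 and 1 under the FOXF1 guide were higher and 0 were lower. C14orf1, the human homologue of yeast ERG28, a scaffold of C-4 demethylation, measured 35.5 RPKM under guide 69, 33.6 under guide 71 and 37.7 under the FOXF1 guide, against 22.6 under sgRNA-NT. TMEM97, the sigma-2 receptor, measured 7.3 RPKM under guide 69, 7.1 under guide 71 and 6.6 under the FOXF1 guide, against 4.7 under sgRNA-NT. Both lay above sgRNA-NT, as NSDHL, HSD17B7 and EBP did. Of 5 further sterol enzymes, 0 were higher in any library, and 1 was lower, under the FOXF1 guide. CYB5B, a cytochrome b5, measured 24.8 RPKM under the FOXF1 guide and 37.9 under guide 69 and 41.7 under guide 71, against 40.6 under sgRNA-NT.

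Of 11 genes of sterol uptake and efflux, 1 under guide 69, 2 under guide 71 and 1 under the FOXF1 guide were higher, and 1 under guide 69, 3 under guide 71 and 2 under the FOXF1 guide lower. LRP1, a lipoprotein receptor with a transcript of 14923 bases, measured 12.6 RPKM under guide 69, 6.9 under guide 71 and 18.5 under the FOXF1 guide, against 44.6 under sgRNA-NT. Its libraries had the same order as those of FASN. SCARB1, the HDL receptor, measured 16.6 RPKM under guide 69, 11.6 under guide 71 and 19.7 under the FOXF1 guide, against 22.1 under sgRNA-NT. NPC1, which exports cholesterol from lysosomes, measured 7.1 RPKM under guide 69, 5.8 under guide 71 and 8.7 under the FOXF1 guide, against 9.4 under sgRNA-NT. OSBP, the oxysterol-binding protein, measured 12.3 RPKM under guide 69, 13.7 under guide 71 and 9.7 under the FOXF1 guide, against 15.8 under sgRNA-NT. SCARB1 and NPC1 were lowest under guide 71, and OSBP under the FOXF1 guide. Of 8 genes of the isoprenoid branches, 1 under guide 69, 2 under guide 71 and 0 under the FOXF1 guide were higher, and 1 was lower, under the FOXF1 guide. NUS1, a subunit of the dolichol-making prenyltransferase, had 8.2 RPKM under guide 69, 8.8 under guide 71 and 5.5 under the FOXF1 guide, against 8.9 under sgRNA-NT.

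Of 17 genes of fatty acid supply and elongation, 2 under guide 69, 3 under guide 71 and 3 under the FOXF1 guide were higher, and 4 were lower, each under the FOXF1 guide. HACD1, a dehydratase of the elongation cycle, had log2 ratios of 0.75 under guide 69, 0.75 under guide 71 and 0.63 under the FOXF1 guide. TECR, the reductase of the same cycle, had 0.45 under guide 69, 0.46 under guide 71 and 0.67 under the FOXF1 guide. ME1, the malic enzyme that supplies NADPH, had -0.42 under guide 69, -0.48 under guide 71 and -0.71 under the FOXF1 guide, on the side of ACLY and FASN. ACSL3, an acyl-CoA synthetase, had -0.47 under guide 69, -0.53 under guide 71 and -0.65 under the FOXF1 guide. Of 13 genes of glycerolipid synthesis, 0 were higher in any library, and 1 under guide 71 and 2 under the FOXF1 guide were lower. AGPAT1, an acyltransferase of phosphatidic acid synthesis, had log2 ratios of -0.54 under guide 69, -0.91 under guide 71 and -0.43 under the FOXF1 guide. LPIN2, a phosphatidate phosphatase, had -0.53 under guide 69, -0.57 under guide 71 and -1.18 under the FOXF1 guide. For CDS2, which makes CDP-diacylglycerol, the ratios were -0.31 under guide 69, -0.23 under guide 71 and -0.62 under the FOXF1 guide. Each of these 3 genes lay below sgRNA-NT. The ratios of the related lists are given without correction for transcript length. ACSL3, LPIN2 and CDS2, with transcripts of 5577, 6052 and 9076 bases, fall in the longest group of genes. That group had medians of -0.29 under guide 69, -0.31 under guide 71 and -0.35 under the FOXF1 guide. AGPAT1, of 2196 bases, falls outside it.

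Of 15 genes of fatty acid oxidation, 2 under guide 69, 4 under guide 71 and 1 under the FOXF1 guide were higher, and 1 was lower under guide 69 and under guide 71. HADH, a mitochondrial dehydrogenase of beta-oxidation, measured 9.3 RPKM under guide 69, 12.7 under guide 71 and 12.2 under the FOXF1 guide, against 5.3 under sgRNA-NT. CPT1A, the carnitine transferase that admits fatty acids to mitochondria, measured 4.3 RPKM under guide 69, 3.6 under guide 71 and 9.3 under the FOXF1 guide, against 7.7 under sgRNA-NT. Its enhancer guides lay below the control and the FOXF1 guide above it. ECI2 and DECR1, auxiliary enzymes for unsaturated fatty acids, passed 1.5-fold under guide 71 alone, with log2 ratios of 1.07 for ECI2 and 0.60 for DECR1.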

How the data were processed

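Gene expression was measured by RNA-seq in 4 libraries, 1 for each guide. Single-end 65 bp reads had been mapped by the authors (TopHat2, genome hg19), assigned to genes (HTSeq) and turned into RPKM on GENCODE v25 models. No version of either tool is given here, since the sources used state none. The deposited RPKM values were quantile-normalized by the authors over the libraries and carry 1 decimal and a floor of 1. The study and the sample labels name different RNA reagents and library kits, and none states whether counting used strand. Deposited log2 ratios are the authors' own comparisons and were not used.

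Log2 ratios were computed without a pseudocount where a gene averaged at least 2 RPKM, and members were counted at 1.5-fold. limma (3.58.1, R 4.3.3) was fitted to log2 RPKM of all 7596 genes with a mean-variance trend, both enhancer guides forming 1 group and the lone libraries assumed to vary like them, with Benjamini-Hochberg adjustment over all genes. The fit was tested on simulated data. Its p-values measure the spread between libraries, which may be technical. Lengths and GC content come from GENCODE v44 transcripts lifted to GRCh37, not the version the authors used, and corrections used a spline with 5 knots. Promoter sequences are from RefSeq, GRCh38.p14.

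Every member is described, and from each related list up to 4 genes averaging at least 5 RPKM with a 1.5-fold difference in any library, by the largest absolute log2 ratio. SCD5 and FADS3 were added beside the listed desaturases after the data were seen. The members and lists were chosen with earlier results of these data known. Alternatives were a pseudocount of 1 RPKM, every member or a mean of at least 5 RPKM, centring, a 2-fold count, length correction, each enhancer guide left out and other settings of limma. Correction for length and GC content together was added after the data were seen. Calculations used Python 3.11.15, numpy 2.4.6, pandas 2.3.3, scipy 1.17.1 and matplotlib 3.10.9.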

Additional observations from a re-analysis of the deposited data

Results flagged for a closer look

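In 5 members and 1 related gene both enhancer guides lay on one side of sgRNA-NT and sgRNA-FOXF1 on the other. The share of all genes that did the same was not counted, so this number says nothing particular about the members. The log2 difference of sgRNA-FOXF1 from the enhancer guides was -0.38 for HMGCS1, -0.15 for IDI1, -0.19 for SQLE, 0.27 for SREBF2, 0.47 for SCAP and 1.24 for CPT1A. limma's contrast of sgRNA-FOXF1 against the enhancer guides gave adjusted p values of 0.459, 0.513, 0.474, 0.45, 0.45 and 0.45 in that order, so no difference passed the threshold. Corrected for transcript length, HMGCS1 stood at 0.11 under sgRNA-FOXF1, and SREBF2 at 0.15 under sgRNA-AP1-69, 0.19 under sgRNA-AP1-71 and 0.46 under sgRNA-FOXF1, so that these genes no longer lay on opposite sides. For SQLE and IDI1 the sgRNA-FOXF1 library was within 0.04 of the control on the log2 scale.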

How the results depend on the processing

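Among the members, counts at 1.5-fold depended most on the setting, since several ratios lay close to it. With a pseudocount of 1 RPKM, sgRNA-AP1-69 kept 1 higher and 1 lower member, sgRNA-AP1-71 had 3 higher, sgRNA-FOXF1 had 1 lower, and sgRNA-FOXF1 against the enhancer guides had 1 higher, against 4.65% and 7.66%, 10.5%, 10.6% and 4.02% of all genes. At a mean of at least 5 RPKM, sgRNA-FOXF1 had 1 lower of 23 members, against 11.5% of all genes. Centred on the median of all genes, 1 member was higher with sgRNA-AP1-69 and 2 with sgRNA-AP1-71, against 5.82% and 10.7% of all genes. Corrected for transcript length, 0 were higher and 1 lower with sgRNA-AP1-69, the median with sgRNA-AP1-71 was 0.22 with 1 lower, and sgRNA-FOXF1 had 1 lower, against 5.97%, 7.35%, 12.1% and 10.4% of all genes. Corrected for length and GC content, which was chosen after seeing the data, 0 were higher and 0 lower with sgRNA-AP1-69, the median with sgRNA-AP1-71 was 0.26 with 1 lower, sgRNA-FOXF1 had 1 lower, and against the enhancer guides it had 0 higher and 1 lower (TM7SF2 at -0.74), against 5.66%, 7.01%, 11.6%, 8.91%, 3.24% and 1.92% of all genes. At 2-fold, 0 were higher and 1 lower with each enhancer guide, and 0 either way with sgRNA-FOXF1, with 0 higher against the enhancer guides. Leaving out an enhancer guide, sgRNA-FOXF1 was higher than the other in 1 to 2 members and lower in 0 to 1. The shares of all genes at 2-fold and with a guide left out were not counted.

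Without the genes equal in both guides, limma called 6 members for the enhancer guides against sgRNA-NT (ACAT2, EBP, FADS2 and FDPS higher, FASN and SREBF1 lower), 3 for sgRNA-FOXF1 against sgRNA-NT (EBP and FADS2 higher, FASN lower) and 1 against the enhancer guides (FASN higher). These members are to be read against the numbers of all genes called by the same refit, given with the limma results above. The refit left genes out for having no distance between the enhancer guides, and that distance is the only residual of the fit. It took every gene's spread from the trend alone, with an infinite prior weight, whereas the fit to all genes gave the trend 1.4 degrees of freedom. Without the trend, at a mean of at least 5 RPKM, with a pseudocount or with the 3 targeted libraries as 1 group, limma called 0 members. No difference of 1.5-fold or more turned its direction. Smaller ratios did with length correction, among them PMVK under sgRNA-AP1-69 (-0.10) and sgRNA-AP1-71 (-0.02), HMGCS1 (0.11) and SREBF1 (0.15) under sgRNA-FOXF1, and SREBF2 under sgRNA-AP1-69 (0.15) and sgRNA-AP1-71 (0.19). The members' median for sgRNA-FOXF1 against the enhancer guides, -0.002, was 0.03 when centred and 0.07 at a mean of at least 5 RPKM. No paired analysis was possible because each condition has 1 library. Depth cannot be weighed, and values near the floor (HSD17B7, TM7SF2, SC5D) carry coarse ratios.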
